A study of Homo sapiens with 6 samples.

Results

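The genes described here carry glucose into the cell, break it down to pyruvate, exchange pyruvate with lactate, pass pyruvate to the mitochondrion or run the non-glycolytic pentose phosphate route. They were taken from a list of 40 gene symbols. The deposited table holds 39 of them among its 23346 rows, PKM under its older name PKM2, and 38 were expressed highly enough to be tested. The cells were KhES-1, a human embryonic stem cell line, and both groups were grown on dishes coated with a laminin-E8 fragment (the part of laminin that binds integrins) at 0.5 µg/cm2. The AKIT group (3 libraries) grew without added FGF2 or TGF-beta, in a medium built on small molecules: 1-azakenpaullone (blocks GSK3), ID-8 (blocks DYRK) and tacrolimus (blocks calcineurin). The control group was kept in Essential 8 (E8), a defined medium that contains FGF2 and TGF-beta; 2 of its libraries were used and the third was not analysed here. All libraries come from the same line, so the comparison describes that line, and the time spent in each medium is not given in the sources used here.

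Levels are RPKM (reads scaled to gene length and to the library's total), which allows levels to be compared between genes. The libraries rest on 16242864 to 23263095 reads, recovered from the steps of the RPKM values. Each difference is the AKIT mean less the E8 mean of log2(RPKM + 1), a scale that shrinks the change of low genes, with a standard error (SE) and a limma p-value adjusted over all 14776 genes tested. Nothing in the labels says whether replicates came from separate cultures; the p-values therefore reflect only the spread between these libraries, which may be technical. Replicates within AKIT differed more than those within E8: the chi-square statistic per gene was 3.41 between the E8 libraries and 17.5 to 33.3 between AKIT libraries. Over all genes AKIT replicates 1 and 3 were the closest AKIT pair (17.5). AKIT replicate 2 lay further from replicate 1 (33.3) and from replicate 3 (27.7). AKIT replicate 3 stood apart for several of the genes described below, and for those genes the difference is also given without it. Those genes were picked out by the same values, and leaving that library out narrows their AKIT spread. Differences, p-values and calls without AKIT replicate 3 are therefore descriptions and no support for a change. POU5F1, a core pluripotency factor, had 399.99, 296 and 351 RPKM in the AKIT libraries (replicates 1, 2 and 3, the order used throughout) and 342 and 313 RPKM in the E8 libraries (replicates 1 and 2), a difference of 0.08 ± 0.15 (SE; adjusted p = 0.727).

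Glycolysis turns glucose into pyruvate in the cytosol. Lactate dehydrogenase can reduce the pyruvate to lactate, which leaves the cell through monocarboxylate carriers, or the pyruvate dehydrogenase complex can convert it to acetyl-CoA in the mitochondrion; pyruvate dehydrogenase kinases (PDK1 to PDK4) switch that complex off by phosphorylating its E1 alpha subunit. The pentose phosphate pathway branches off at glucose 6-phosphate and supplies NADPH and ribose. Human pluripotent stem cells are known for a high rate of glycolysis and lactate release.

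In AKIT medium 5 of the 38 tested genes passed the test. TALDO1 (transaldolase, of the pentose phosphate route) and PDHA1 and DLAT (subunits of the pyruvate dehydrogenase complex) were higher in AKIT. SLC16A1 (the lactate carrier MCT1) and PDK2 (a pyruvate dehydrogenase kinase) were lower. These are 3 of 38 tested genes higher, against 8.22% of all genes tested, and 2 of 38 lower, against 11.7% of all genes. Both directions together came to 13.2% of the 38, below the 20.0% of all genes called. At an unadjusted p under 0.05 there were 10 of 38 (26.3%), against 36% of all genes. The median difference of the 38 genes was 0.10, against -0.01 for all genes tested, and their median absolute difference was 0.21, against 0.24. All AKIT libraries lay above both E8 libraries for 12 of the 38 genes, against 25.8% of all genes, and below both for 6, against 28.6%; groups without overlap made up 54.4% of all genes.

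**Figure D1:**
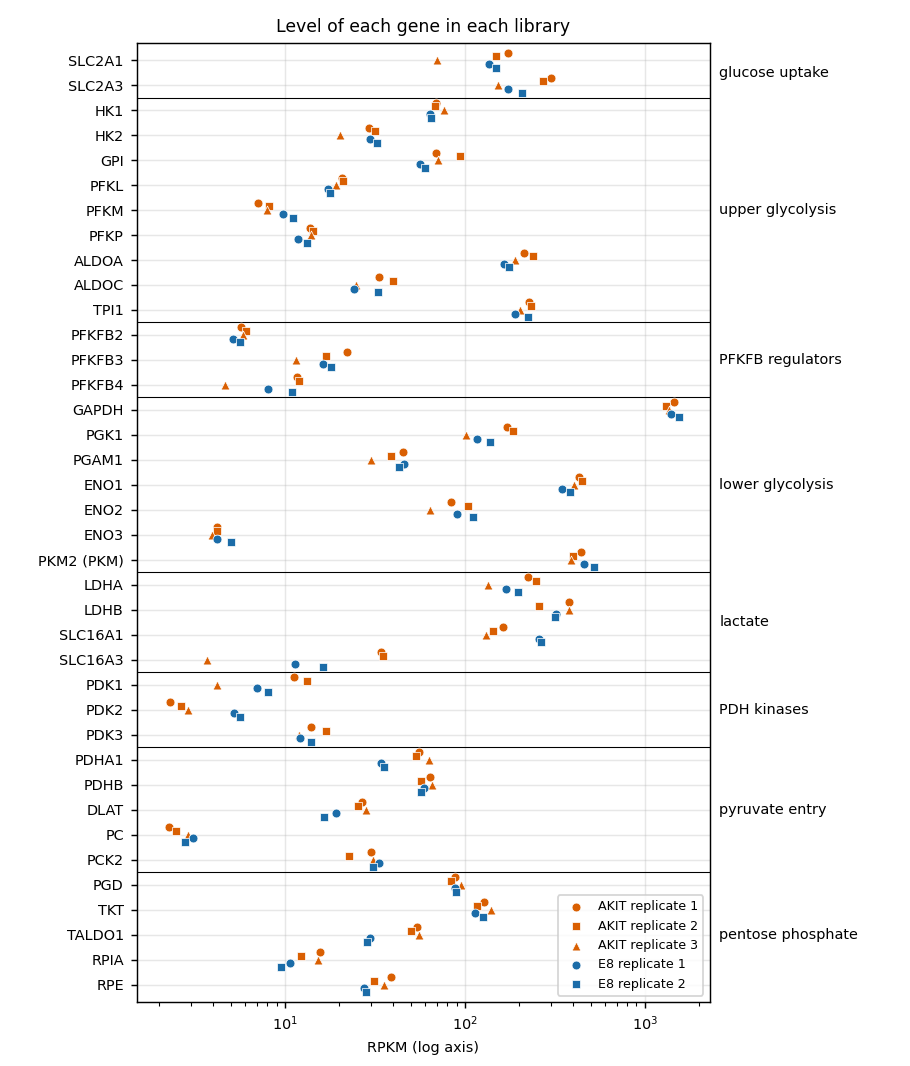
RPKM on a log axis (x) of the 38 tested genes (y, ordered by role) in each library, with orange symbols for AKIT replicates 1 to 3 and blue symbols for E8 replicates 1 and 2. The E8 libraries sit together for most genes, while AKIT replicate 3 (triangles) lies left of every other library for 15 of the 38 genes (39.5%, against 18.8% of all genes tested), furthest for SLC16A3 at 3.70 RPKM. AKIT replicate 3 lies right of every other library for 8 of the 38 genes (21.1%, against 22.2% of all genes).

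**Figure D2:**
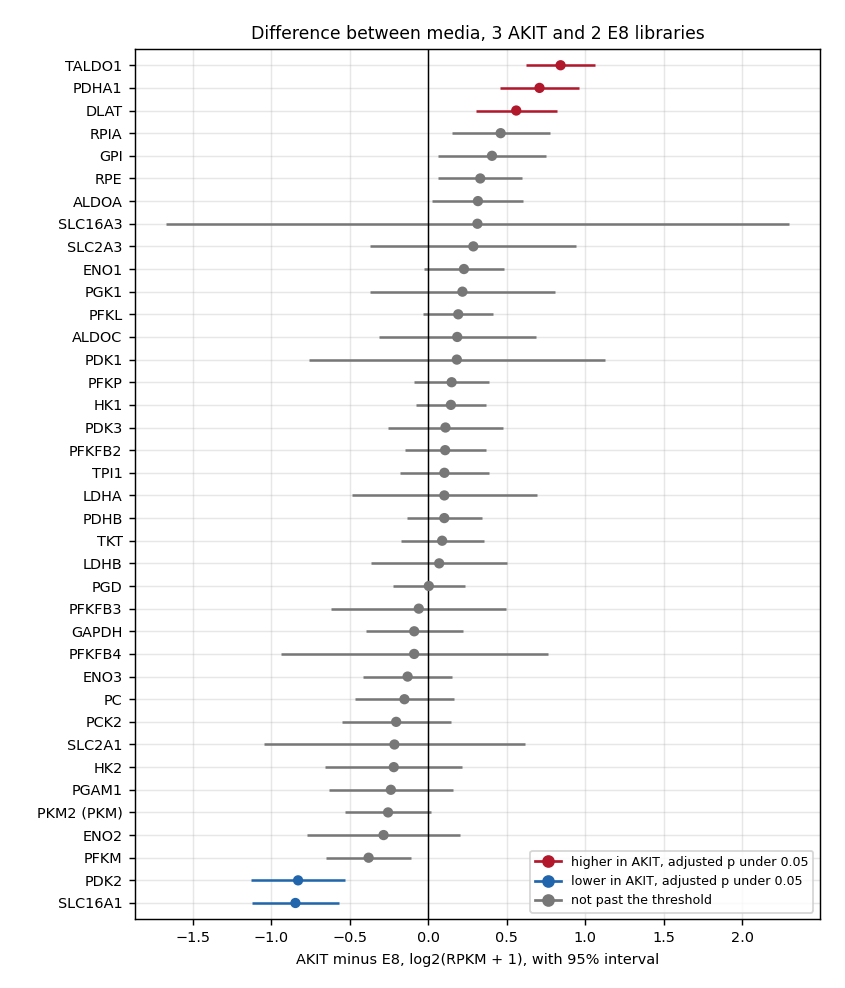
Difference between AKIT and E8 on the log2(RPKM + 1) scale (x) for each tested gene (y), with 95% intervals from limma. TALDO1, PDHA1 and DLAT lie right of 0 and SLC16A1 and PDK2 left of it among the genes called; the interval of SLC16A3 runs from -1.67 to 2.30.

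The listed glucose carriers were GLUT1 (SLC2A1) and GLUT3 (SLC2A3), which let glucose cross the membrane down its gradient. SLC2A1 was at 173, 149 and 70.0 RPKM in AKIT replicates 1 to 3 and at 136 and 148 RPKM in E8. SLC2A3 was at 302, 271 and 153 RPKM in AKIT and at 175 and 207 RPKM in E8. In both genes AKIT replicates 1 and 2 were above the E8 libraries and AKIT replicate 3 was below them, so that the groups overlapped. The differences over all libraries were -0.22 ± 0.35 (SE; adjusted p = 0.696) for SLC2A1 and 0.29 ± 0.28 (SE; adjusted p = 0.498) for SLC2A3. Without AKIT replicate 3, SLC2A3 was called higher (0.59, adjusted p = 0.0458), and SLC2A1 was not (0.18, adjusted p = 0.356). The summed level of both carriers was 476, 420 and 223 RPKM in AKIT and 310 and 356 RPKM in E8.

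The upper steps of glycolysis, from hexokinase to triose phosphate isomerase, held 9 tested genes, and none passed the test (limma, smallest adjusted p 0.0586). The gene nearest to it was PFKM, the muscle-type subunit of phosphofructokinase, at 7.12, 8.19 and 7.93 RPKM in AKIT and 9.73 and 11.05 RPKM in E8 (-0.38 ± 0.11, SE; adjusted p = 0.0586). All 3 AKIT libraries lay below both E8 libraries, while the other phosphofructokinase genes PFKL and PFKP lay above them, by 0.19 and 0.15. PFKM was called lower when AKIT replicate 2 was left out and when the recovered reads were tested with voom. GPI, which converts glucose 6-phosphate to fructose 6-phosphate, was at 69.6, 93.9 and 71.3 RPKM in AKIT and 56.6 and 60.04 RPKM in E8 (0.41 ± 0.14, SE; adjusted p = 0.0926). Of the alternatives run, it was called higher only in the fit without AKIT replicate 2, its highest library. ALDOA, the main aldolase gene here, was at 213, 240.2 and 191 RPKM in AKIT and 166 and 177 RPKM in E8 (0.32 ± 0.12, SE; adjusted p = 0.113). Neither hexokinase gene passed the test: HK1 was at 69.4, 68.7 and 76.6 RPKM in AKIT against 64.0 and 65.2 RPKM in E8, and HK2 at 29.4, 31.7 and 20.3 RPKM against 29.9 and 32.5 RPKM. ALDOC and TPI1 had overlapping groups and differences of 0.18 and 0.10.

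The PFKFB genes encode bifunctional enzymes that set the level of fructose 2,6-bisphosphate, the activator of phosphofructokinase. None of the 3 passed the test (smallest adjusted p 0.521). PFKFB2 was at 5.71, 6.07 and 5.88 RPKM in AKIT and 5.13 and 5.66 RPKM in E8. PFKFB3 was at 22.1, 17.0 and 11.6 RPKM in AKIT and 16.3 and 18.0 RPKM in E8, and PFKFB4 at 11.7, 11.97 and 4.67 RPKM in AKIT and 8.06 and 10.9 RPKM in E8. For PFKFB3 and PFKFB4 the lowest of the 5 libraries was AKIT replicate 3, and the sign of the difference turned without it, from -0.06 to 0.17 (adjusted p = 0.484) for PFKFB3 and from -0.09 to 0.30 (adjusted p = 0.253) for PFKFB4.

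The lower steps, from glyceraldehyde 3-phosphate to pyruvate, held 7 tested genes, and none passed the test (limma, smallest adjusted p 0.160). GAPDH was the most abundant of the 38 genes, at 1460, 1313 and 1371 RPKM in AKIT and 1391 and 1551 RPKM in E8 (-0.09, 95% interval -0.40 to 0.22). PKM2, the row of the pyruvate kinase gene PKM, was at 441, 401 and 392 RPKM in AKIT and 463 and 521 RPKM in E8 (-0.26 ± 0.12, SE; adjusted p = 0.160). All AKIT libraries lay below E8 for this gene, and a gene-level value does not separate its M1 and M2 isoforms. ENO1, the main enolase gene, was at 432, 448 and 407 RPKM in AKIT and 348 and 385 RPKM in E8 (0.23 ± 0.11, SE; adjusted p = 0.183). PGK1, which makes the first ATP of the pathway, was at 172, 185 and 102 RPKM in AKIT and 117 and 138 RPKM in E8. As for the glucose carriers, AKIT replicate 3 was below both E8 libraries and the other AKIT libraries were above them; the difference was 0.22 with it (adjusted p = 0.571) and 0.48 without it (adjusted p = 0.0575). PGAM1 was at 45.5, 39.1 and 30.2 RPKM in AKIT and 46.1 and 43.3 RPKM in E8, and ENO2, the neuronal-type enolase, at 83.9, 105 and 63.8 RPKM in AKIT and 90.9 and 112 RPKM in E8. ENO3, the muscle-type enolase, stayed between 3.92 and 4.999 RPKM in all 5 libraries. GAPDH, PGK1, PGAM1, TPI1, ENO1, LDHA, LDHB and PKM have near-identical processed copies in the genome, so their levels are uncertain by the reads such copies could take; the table's rows for TPI1 copies, TPI1P2 and TPI1P3, were at 6.51 to 8.48 RPKM and at most 0.085 RPKM.

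Lactate dehydrogenase is a tetramer of A (LDHA) and B (LDHB) subunits, and lactate leaves through MCT1 (SLC16A1) and MCT4 (SLC16A3). SLC16A1 was at 162, 143 and 131 RPKM in AKIT and at 259 and 265 RPKM in E8. All AKIT libraries lay below both E8 libraries, and the mean was 55.6% of that in E8 (-0.85 ± 0.12, SE; adjusted p = 0.00478). SLC16A3 was at 34.4, 35.1 and 3.70 RPKM in AKIT and at 11.4 and 16.3 RPKM in E8, from 1984, 2024, 178, 498 and 657 reads. AKIT replicates 1 and 2 were the highest of the 5 libraries and AKIT replicate 3 the lowest, 9.30-fold below the lower of the other AKIT libraries and 3.07-fold below the lower E8 library. The difference over all libraries was 0.31 ± 0.84 (SE; adjusted p = 0.820); without AKIT replicate 3 it was 1.29 (adjusted p = 0.0147). LDHA was at 225, 247 and 136 RPKM in AKIT and at 170 and 197 RPKM in E8, the same arrangement of libraries, with a difference of 0.10 ± 0.25 (SE; adjusted p = 0.802), and of 0.37 without AKIT replicate 3 (adjusted p = 0.107). LDHB was at 381, 259 and 382 RPKM in AKIT and at 320.4 and 319 RPKM in E8, and here AKIT replicate 2 was the library apart. Of the alternatives run, LDHB was called higher only without AKIT replicate 2.

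Of the pyruvate dehydrogenase kinases, PDK2 alone passed the test. PDK2 was at 2.29, 2.64 and 2.90 RPKM in AKIT and at 5.19 and 5.63 RPKM in E8, from 181 to 311 reads a library. The AKIT libraries were all below E8, at a mean of 48.3% of it (-0.83 ± 0.13, SE; adjusted p = 0.00724). PDK1 was at 11.2, 13.4 and 4.20 RPKM in AKIT and at 7.02 and 8.11 RPKM in E8 (0.18 ± 0.40, SE; adjusted p = 0.777). AKIT replicate 3 was again below E8 and the other AKIT libraries above it, and PDK1 was called higher without AKIT replicate 3 (0.63, adjusted p = 0.0450). PDK3 was at 13.9, 17.0 and 12.01 RPKM in AKIT and 12.1 and 14.1 RPKM in E8, with overlapping groups. PDK4 was not tested, since it had 0 to 6 reads in a library.

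Entry of pyruvate into the mitochondrial cycle gave 2 of the 3 genes called higher. PDHA1 encodes the E1 alpha subunit of the pyruvate dehydrogenase complex, which holds the sites that the kinases phosphorylate. It was at 56.0, 53.5 and 63.7 RPKM in AKIT and at 34.2 and 35.5 RPKM in E8, 1.66-fold higher in AKIT (0.71 ± 0.11, SE; adjusted p = 0.00645), with no overlap. DLAT encodes the E2 subunit that carries the acetyl group. It was at 26.8, 25.4 and 28.2 RPKM in AKIT and at 19.4 and 16.4 RPKM in E8, 1.497-fold higher in AKIT (0.56 ± 0.11, SE; adjusted p = 0.0154), and the groups did not overlap. PDHB, the E1 beta subunit, was at 64.4, 57.2 and 66.1 RPKM in AKIT and 59.4 and 56.9 RPKM in E8 (0.10, 95% interval -0.14 to 0.34). PC, which makes oxaloacetate from pyruvate, was at 2.26 to 2.89 RPKM in AKIT and 2.79 and 3.07 RPKM in E8, and PCK2, the mitochondrial phosphoenolpyruvate carboxykinase, was at 30.2, 22.7 and 31.0 RPKM in AKIT and 33.2 and 31.0 RPKM in E8. Neither passed the test.

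Pentose phosphate genes gave the call with the smallest p. TALDO1, which with transketolase joins the route back to glycolysis, was at 54.5, 50.1 and 55.4 RPKM in AKIT and at 29.8 and 28.7 RPKM in E8. All AKIT libraries were above both E8 libraries, 1.82-fold on average (0.84 ± 0.09, SE; adjusted p = 0.00251). RPIA, which makes ribose 5-phosphate, was at 15.7, 12.3 and 15.2 RPKM in AKIT and 10.7 and 9.57 RPKM in E8 (0.46 ± 0.13, SE; adjusted p = 0.0507), just outside the threshold; it passed with a minimum mean of 2 RPKM, with median-of-ratios or quantile scaling, and without AKIT replicate 2. RPE, the epimerase beside it, was at 39.0, 31.5 and 35.8 RPKM in AKIT and 27.4 and 28.3 RPKM in E8 (0.33 ± 0.11, SE; adjusted p = 0.0831), and passed only without AKIT replicate 2. Both had all AKIT libraries above E8. TKT (transketolase) and PGD (6-phosphogluconate dehydrogenase) had overlapping groups, with differences of 0.09 and 0.003 (95% intervals -0.18 to 0.35 and -0.23 to 0.23).

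The calls rest on 2 E8 libraries. Without E8 replicate 1, TALDO1 alone was called among the 38 genes (adjusted p = 0.0474) against 2.69% of all genes; without E8 replicate 2 none of the 38 was (limma; TALDO1 at adjusted p = 0.0518), against 2.66% of all genes. The other called genes had adjusted p-values without E8 replicate 1 and without E8 replicate 2 of 0.0914 and 0.0789 (PDHA1), 0.0809 and 0.180 (DLAT), 0.0698 and 0.0745 (SLC16A1) and 0.0743 and 0.0948 (PDK2). Without AKIT replicate 2 there were 7 higher and 3 lower (32.2% of all genes called), without AKIT replicate 3 there were 6 higher and 2 lower (12.2%), and without AKIT replicate 1 there were 3 and 2 (13.9%).

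AKIT replicate 3 differed from the other AKIT libraries along one set of these genes. Each AKIT library was set against the mean of the other AKIT libraries on the log2 scale, over all 14776 genes. For AKIT replicate 3, 12 of the 38 genes were in the lowest 5% of all genes: SLC2A1, SLC2A3, HK2, PFKFB3, PFKFB4, ALDOC, PGK1, PGAM1, ENO2, LDHA, SLC16A3 and PDK1. For AKIT replicate 1 there were 0 of 38, and for AKIT replicate 2 there was 1. In the highest 5% there were 0, 6 and 3 of 38 for AKIT replicates 3, 1 and 2. The values of a gene in the AKIT libraries sum to 0 by construction. A gene far down in AKIT replicate 3 is therefore raised on average in the others, and these counts are not independent of each other. SLC16A3 was the second lowest of all genes for AKIT replicate 3 (-2.93), PDK1 ranked 43rd (-1.35), SLC2A1 ranked 69th (-1.19), PFKFB4 ranked 73rd (-1.18), SLC2A3 ranked 153rd (-0.90), PGK1 ranked 204th (-0.80) and LDHA ranked 210th (-0.80), each out of 14776. In 7 of the 38 genes (18.4%), the 7 just named, AKIT replicate 3 was below both E8 libraries while AKIT replicates 1 and 2 were above both, against 1.91% of all genes tested. The same arrangement for AKIT replicate 1 was seen in 0 of 38, against 2.21% of all genes. For AKIT replicate 2 it was seen in 1 of 38 (2.63%), against 4.79%. Of the other genes in that lowest 5%, the difference with and without AKIT replicate 3 was -0.22 and -0.03 for HK2, 0.18 and 0.36 for ALDOC, -0.24 and -0.08 for PGAM1 and -0.29 and -0.10 for ENO2, none of them called. The choice of AKIT replicate 3 for display followed the data, and the counts are a description with no test. Among markers of other cell types, VIM, a mesenchymal gene, was low in this library, at 72.8, 46.7 and 15.7 RPKM in AKIT and at 60.7 and 59.2 RPKM in E8. THY1 was the most abundant of the same list and made up most of its sum in every library, with or without VIM. Its level was not lowest in AKIT replicate 3, at 203, 145 and 157 RPKM in AKIT and 275 and 273 RPKM in E8. COL3A1 and LUM were instead higher in AKIT replicates 1 and 2 than in E8. COL3A1 was at 5.63, 2.15 and 0.14 RPKM in AKIT and 0.041 and 0 RPKM in E8. LUM was at 5.81, 1.83 and 0.024 RPKM in AKIT and 0 RPKM in both E8 libraries. The 12 fibroblast and mesenchyme markers summed to 348, 257 and 231 RPKM in AKIT and 429 and 426 RPKM in E8, with 4 of 9 tested called lower and none of the 12 at 0 in all libraries; without VIM they summed to 275, 211 and 216 RPKM in AKIT and 369 and 367 RPKM in E8. Their part in the result was not tested.

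**Figure D3:**
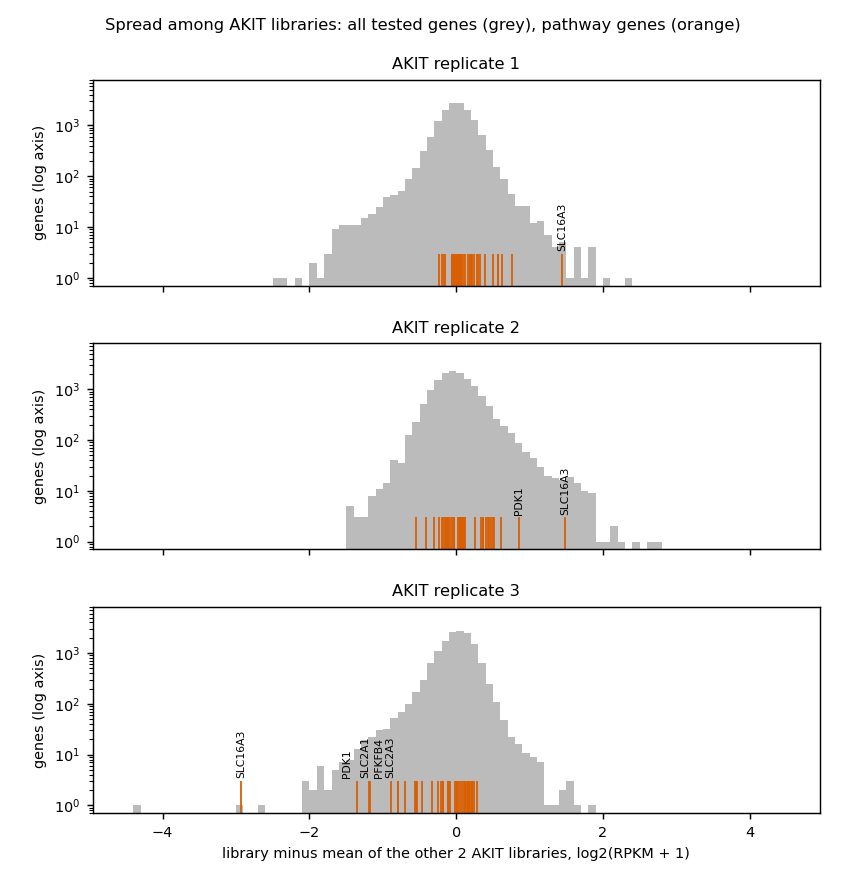
Histogram of each AKIT library's level minus the mean of the other AKIT libraries on the log2(RPKM + 1) scale (x; number of genes on a log axis, y) over all tested genes in grey, with the 38 genes of these pathways as orange ticks. In AKIT replicate 3 the ticks run out to -2.93 (SLC16A3), and 12 of the 38 lie in the lowest 5% of all genes.

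Promoter sequences are shown for the genes with this arrangement that hold ACGTG, letters of the hypoxia response core. The windows are RefSeq's on GRCh38.p14, from 250 bases before to 50 after an annotated gene start, and 36 of the 39 genes matched by symbol, PKM2 through PKM. The search counted ACGTG and GCGTG on either strand, and CACGTG, which is its own reverse complement and holds ACGTG on both strands. The windows below are each for one annotated start; some genes have several. Capitals mark the matches of ACGTG or GCGTG on either strand. These 4 were chosen after their values were seen, and because they hold ACGTG. The windows of SLC2A1 and PFKFB4, which had the same arrangement, hold GCGTG but no ACGTG, and SLC2A3 has no window.
SLC16A3, chr17:82228792-82229091, plus strand: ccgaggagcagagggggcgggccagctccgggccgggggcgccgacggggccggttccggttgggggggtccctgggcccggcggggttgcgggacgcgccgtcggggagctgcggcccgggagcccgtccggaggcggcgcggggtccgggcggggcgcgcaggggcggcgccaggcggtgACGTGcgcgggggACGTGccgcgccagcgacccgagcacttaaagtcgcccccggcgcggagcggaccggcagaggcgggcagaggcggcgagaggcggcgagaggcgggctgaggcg
PDK1, chr2:172555840-172556139, plus strand: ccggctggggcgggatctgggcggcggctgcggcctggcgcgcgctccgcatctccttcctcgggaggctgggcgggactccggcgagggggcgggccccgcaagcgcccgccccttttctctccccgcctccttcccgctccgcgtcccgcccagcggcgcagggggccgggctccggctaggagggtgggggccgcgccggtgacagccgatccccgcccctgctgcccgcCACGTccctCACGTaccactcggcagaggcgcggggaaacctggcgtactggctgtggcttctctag
LDHA, chr11:18394313-18394612, plus strand: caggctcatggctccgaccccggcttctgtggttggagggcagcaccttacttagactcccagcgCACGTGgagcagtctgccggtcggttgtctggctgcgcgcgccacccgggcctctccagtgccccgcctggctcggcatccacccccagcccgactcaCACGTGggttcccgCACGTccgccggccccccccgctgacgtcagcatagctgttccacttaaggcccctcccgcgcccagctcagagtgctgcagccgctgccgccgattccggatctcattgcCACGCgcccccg
PGK1, chrX:78103998-78104297, plus strand: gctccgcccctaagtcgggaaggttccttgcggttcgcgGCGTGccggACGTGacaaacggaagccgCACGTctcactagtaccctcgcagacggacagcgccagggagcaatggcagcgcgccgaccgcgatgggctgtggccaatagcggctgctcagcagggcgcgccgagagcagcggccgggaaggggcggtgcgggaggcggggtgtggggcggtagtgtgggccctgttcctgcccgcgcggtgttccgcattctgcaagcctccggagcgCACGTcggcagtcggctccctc

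ACGTG was in 24 of 67 windows of these genes (35.8%), against 21.4% of all 35116 windows, GCGTG in 27 (40.3%), against 36.5%, and CACGTG in 8 (11.9%), against 7.26%. By gene, 20 of 36 held ACGTG, against 24.9% of 27305 genes, 23 of 36 held GCGTG, against 40.6%, and 8 of 36 held CACGTG, against 8.77%. A gene with several windows has more chances of a match than a gene with a single window, so the counts by window and by gene differ. Of the 6 genes with a window among the 7 that AKIT replicate 3 split, 4 held ACGTG (SLC16A3, PDK1, LDHA and PGK1) and 5 held GCGTG. Of the 4 called genes with a window, 2 held ACGTG and 3 held GCGTG. With so few genes these counts cannot be compared, and a difference was not tested. A match describes letters in a window and is no binding site. The called genes with a window and a match were PDHA1, DLAT and PDK2, of which DLAT and PDK2 held ACGTG, and PDHA1 held GCGTG only. Their windows are given for comparison with the 4 above, with the same meaning of capitals.
PDHA1, chrX:19343677-19343976, plus strand: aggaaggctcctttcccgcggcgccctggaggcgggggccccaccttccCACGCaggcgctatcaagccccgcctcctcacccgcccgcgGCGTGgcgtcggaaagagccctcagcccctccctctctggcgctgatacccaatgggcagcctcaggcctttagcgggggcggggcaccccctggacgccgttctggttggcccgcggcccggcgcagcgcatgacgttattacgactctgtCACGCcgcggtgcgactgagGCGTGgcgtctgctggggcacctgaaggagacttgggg
DLAT, chr11:112025158-112025457, plus strand: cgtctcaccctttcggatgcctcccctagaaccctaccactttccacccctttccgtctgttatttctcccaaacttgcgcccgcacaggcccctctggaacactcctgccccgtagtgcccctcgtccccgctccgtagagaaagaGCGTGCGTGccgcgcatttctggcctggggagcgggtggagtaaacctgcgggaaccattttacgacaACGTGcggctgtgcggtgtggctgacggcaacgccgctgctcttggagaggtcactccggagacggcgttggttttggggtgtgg
PDK2, chr17:50095101-50095400, plus strand: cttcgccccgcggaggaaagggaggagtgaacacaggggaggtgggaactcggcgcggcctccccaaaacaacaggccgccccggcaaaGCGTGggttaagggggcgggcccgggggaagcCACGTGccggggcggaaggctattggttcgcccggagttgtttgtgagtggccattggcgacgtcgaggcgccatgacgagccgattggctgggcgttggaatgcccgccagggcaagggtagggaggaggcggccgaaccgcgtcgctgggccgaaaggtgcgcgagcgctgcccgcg

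Several steps are shared by paralogs, whose share in a library can be compared per length. A share is a gene's RPKM over the summed RPKM of its family, and with 3 libraries against 2 no exact permutation test can go below p = 0.2, so shares are given as values only. MCT4 (SLC16A3) made up 17.5%, 19.7% and 2.74% of MCT1 and MCT4 in AKIT and 4.21% and 5.80% in E8. PDK1 made up 40.8%, 40.4% and 21.9% of the PDK genes in AKIT and 28.8% and 29.1% in E8, and PDK2 made up 8.37%, 7.98% and 15.1% against 21.3% and 20.2%. SLC2A1 made up 36.5%, 35.5% and 31.3% of both glucose carriers in AKIT and 43.7% and 41.7% in E8, and PFKM 17.1%, 18.9% and 19.3% of phosphofructokinase genes in AKIT and 25.0% and 26.1% in E8. In these last cases, and for PDK2, all AKIT libraries were below both E8 libraries. LDHA made up 37.2%, 48.8% and 26.2% of lactate dehydrogenase genes in AKIT and 34.7% and 38.2% in E8, and HK2 29.7%, 31.5% and 20.9% of HK1 and HK2 against 31.9% and 33.3%. ENO2 was at 16.1%, 18.8% and 13.4% of enolase genes in AKIT against 20.5% and 22.3% in E8.

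**Figure D4:**
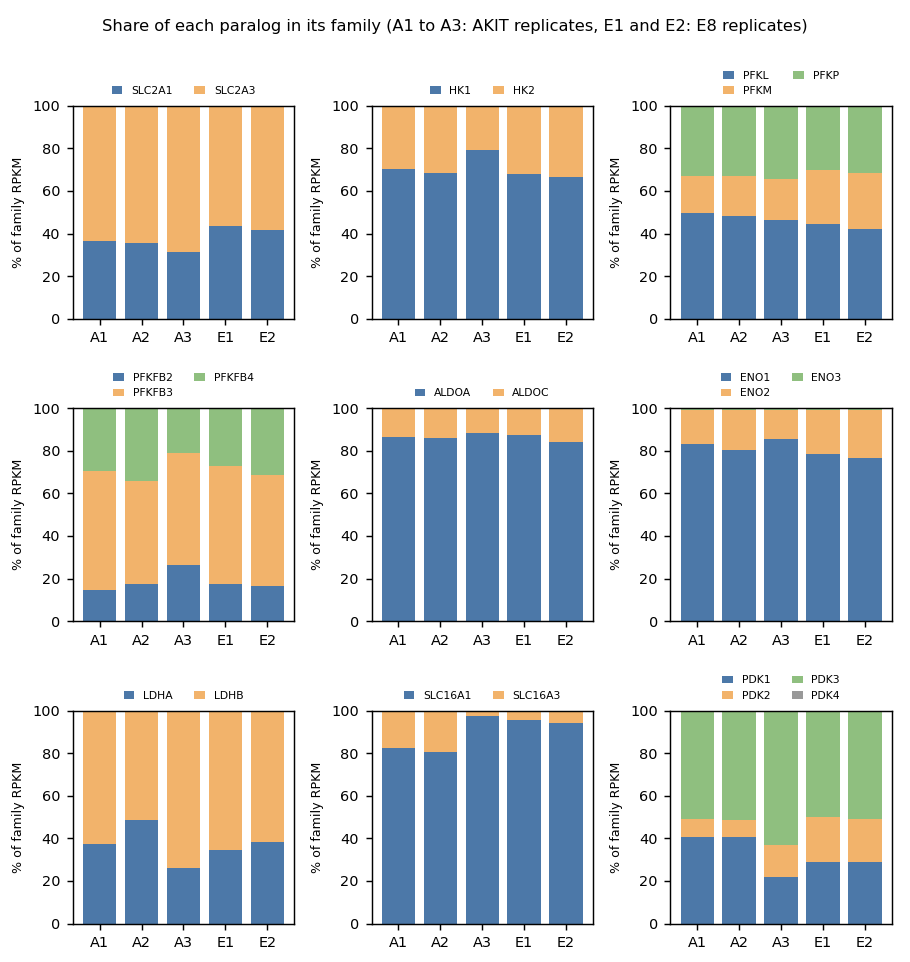
Share of each paralog in the summed RPKM of its family (y, %), stacked for each library (x; A1 to A3 are AKIT replicates, E1 and E2 E8 replicates), 9 families. SLC16A3 makes up 17.5% and 19.7% in AKIT replicates 1 and 2 but 2.74% in replicate 3, and PFKM is smaller in all AKIT libraries than in E8.

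Genes outside the list of 40 that belong to the same metabolism were counted by the same test. Among 20 tested genes of other glycolytic and gluconeogenic steps, none passed (limma; 5 at an unadjusted p under 0.05). PKLR, the liver and red cell pyruvate kinase, had the smallest p (-0.52, adjusted p = 0.0644), and ADPGK, a hexokinase that uses ADP, the next (0.25, adjusted p = 0.0872). Of 20 tricarboxylic acid cycle genes, 6 were higher and 2 lower, 40% against 20.0% of all genes, with a median of 0.32. IDH3A, a subunit of the NAD-dependent isocitrate dehydrogenase, was at 24.6, 22.2 and 27.5 RPKM in AKIT and at 13.2 and 11.99 RPKM in E8 (0.92, adjusted p = 0.00399). SUCLG1, of succinyl-CoA ligase, was also higher (0.66, adjusted p = 0.0341), a call lost in 6 of 14 alternatives (adjusted p 0.0212 to 0.256 over all 14), among them no filter and leaving out AKIT replicate 1, AKIT replicate 3 or either E8 library, while IDH2, the mitochondrial NADP-dependent isocitrate dehydrogenase, was lower (-0.60, adjusted p = 0.0102).

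Of 19 other pyruvate entry genes, 4 were higher and 1 lower, 26.3% against 20.0% of all genes. DLD, the E3 subunit of the pyruvate dehydrogenase complex, was at 27.6, 25.4 and 28.1 RPKM in AKIT and at 15.5 and 15.8 RPKM in E8 (0.75, adjusted p = 0.0038). BRP44L, the older name of the mitochondrial pyruvate carrier MPC1, was higher as well (0.74, adjusted p = 0.0449), a call lost in 6 of 14 alternatives (adjusted p 0.0095 to 0.298 over all 14): no filter, voom, and without AKIT replicate 1, AKIT replicate 3 or either E8 library. PDP1, the phosphatase that switches the complex back on, was at 19.9, 24.8 and 21.2 RPKM in AKIT and at 40.5 and 37.0 RPKM in E8 (-0.80, adjusted p = 0.00646). Of 16 other carriers, 3 were higher and 3 lower (37.5%), with SLC2A6 at 20.7, 15.7 and 17.8 RPKM in AKIT and 7.72 and 7.98 RPKM in E8 (1.10, adjusted p = 0.00319), the monocarboxylate carrier gene SLC16A7 at 1.06 (adjusted p = 0.00692) and SLC16A5 at -0.81 (adjusted p = 0.0136). Of 9 other pentose phosphate genes, 2 were called (22.2%): PRPS2 (which makes phosphoribosyl pyrophosphate) was higher (0.58, adjusted p = 0.0147) and H6PD, an enzyme of the endoplasmic reticulum, lower (-0.996, adjusted p = 0.0147). Of 20 glycogen and hexosamine genes, 3 were called (15%): GNPNAT1 was higher (0.41, adjusted p = 0.0256) and GYG2 and GFPT2 lower (-0.90, adjusted p = 0.0062, and -0.74, adjusted p = 0.0153).

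**Figure D5:**
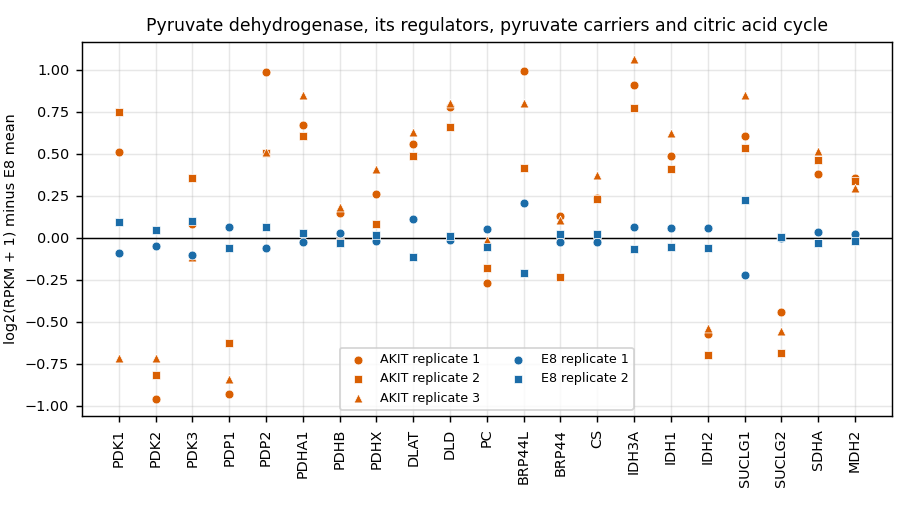
Level of each library minus the E8 mean on the log2(RPKM + 1) scale (y) for pyruvate dehydrogenase subunits and regulators, pyruvate carriers and citric acid cycle genes (x), with AKIT libraries in orange and E8 libraries in blue. PDHA1, DLAT, DLD and IDH3A are above both E8 libraries in all 3 AKIT libraries, PDK2, PDP1 and IDH2 are below both, and PDK1 is above in AKIT replicates 1 and 2 and below in replicate 3.

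Of 23 regulators of glycolytic transcription, ARRDC4 and KLF4 were higher and MYC and MYCN lower, 17.4% against 20.0% of all genes. KLF4 was at 12.1, 13.5 and 14.7 RPKM in AKIT and at 2.24 and 1.81 RPKM in E8 (2.25, adjusted p = 0.000415). MYCN was at 64.3, 85.5 and 62.7 RPKM in AKIT and at 133 and 137 RPKM in E8 (-0.94, adjusted p = 0.00779), and MYC at 70.2, 125 and 74.5 RPKM in AKIT and 156 and 163 RPKM in E8 (-0.87, adjusted p = 0.0442). The MYC call was lost in 8 of 14 alternatives (adjusted p 0.000544 to 0.229 over all 14): no filter, quantile scaling, no trend, the fit with a replicate term, and without AKIT replicate 1, AKIT replicate 3 or either E8 library. HIF1A was at 59.2, 63.4 and 66.5 RPKM in AKIT and 53.2 and 51.3 RPKM in E8 (0.26, adjusted p = 0.0919), and TXNIP, a glucose-responsive gene, was at 4.13, 6.54 and 4.35 RPKM in AKIT and 2.81 and 3.37 RPKM in E8 (0.54, adjusted p = 0.0909). Counts of calls without an E8 library fell to 0 or 1 for the pyruvate entry, pentose phosphate, tricarboxylic acid cycle, glycogen and hexosamine and regulator lists, and to 2 and 1 for the carriers. The share of all genes called fell in those fits as well. Without AKIT replicate 2, 32.2% of all genes were called. The lists then held 8 pyruvate entry, 5 pentose phosphate, 14 tricarboxylic acid cycle, 6 glycogen and hexosamine and 11 regulator genes. Without AKIT replicate 3 (12.2% of all genes called) they held 2 pyruvate entry, 4 tricarboxylic acid cycle and 2 regulator genes. Without AKIT replicate 1 (13.9%) the pyruvate entry list held 3 and the regulator list 2.

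Markers of other cell types were measured beside these genes. Summed levels in AKIT against E8 were 396 to 425 against 345 to 366 RPKM for 8 neural markers (1 of 5 tested called higher), 10.6 to 29.6 against 34.1 to 36.7 RPKM for 9 trophoblast and amnion markers (3 of 6 lower), 89.8 to 141 against 34.2 to 34.7 RPKM for 8 primitive streak and mesoderm markers (1 of 4 higher), 6.31 to 10.98 against 3.74 RPKM for 7 endoderm markers (1 of 4 higher) and 17.7 to 21.6 against 11.2 to 13.5 RPKM for 8 muscle and heart markers (1 of 3 higher), a list that also holds ENO3. The 11 pluripotency markers summed to 3757 to 3777 RPKM in AKIT and 4364 to 4416 RPKM in E8, with SOX2 and PODXL lower. Nearly all of the neural sum was NES and TUBB3. TUBB3 was at 205, 179 and 224 RPKM in AKIT and 136 and 128 RPKM in E8. NES was not higher in AKIT, at 191, 207 and 196 RPKM against 222 and 209 RPKM in E8. Most of the primitive streak and mesoderm sum was KDR, a receptor gene, at 133, 112 and 85.5 RPKM in AKIT and 29.4 and 30.6 RPKM in E8; without it the sums were 8.2, 6.51 and 4.28 RPKM in AKIT and 4.72 and 4.17 RPKM in E8. Most of the trophoblast and amnion sum in E8 was IGFBP3, at 13.6, 7.43 and 5.39 RPKM in AKIT and 26.2 and 24.2 RPKM in E8. HAND1 of that list went the other way, at 6.31, 2.79 and 1.78 RPKM in AKIT and 1.04 and 0.92 RPKM in E8. CGA and TFAP2B of that list had reads in AKIT libraries only, most in AKIT replicate 1. CGA was at 1.99, 0.10 and 0.61 RPKM and TFAP2B at 2.40, 0.060 and 0.018 RPKM in AKIT. CGB of the same list had reads in E8 replicate 2 only (0.13 RPKM). No marker of these lists was at 0 in all 5 libraries, and the part of these markers in the differences above was not tested. In bulk RNA, fewer cells that express a gene and less RNA per cell cannot be told apart.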

How the data were processed

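RNA of KhES-1 cells was sequenced by the submitters, and the deposited table gives RPKM per gene, per the file headers; the builds hg19 and GRCh37 are named in the submitters' processing notes, and for the aligner, counter, annotation and strand: not given in the sources used here. The values are steps of whole reads: of 19892 genes above 0, 100% came out as whole reads within 0.02 reads, which gave 16242864 to 23263095 reads a library, and 1 read in 1 kb is 0.043 to 0.062 RPKM. The 14776 genes whose mean reached 0.5 RPKM across the 5 libraries were tested on log2(RPKM + 1) with limma 3.58.1 in R 4.3.3 with an intensity trend, Benjamini-Hochberg adjusted at 0.05, AKIT (3 libraries) against E8 (2). On simulated data the test found most of the larger changes, missed most of the smallest ones and made more false calls than its nominal rate (12.1% of its calls). A gene that did not pass may therefore still differ, and a called gene may be a false call. The simulated spread beyond counting noise was a dispersion of 0.01, the lowest value allowed. The estimate from the E8 libraries, the only ones used for it, was no higher than that. AKIT libraries differed more from each other, so these rates need not hold for the data. Genes were assigned to lists, and named by the rule that all listed genes are given and up to 3 called genes per other list (or the 2 with the smallest p). The members, lists and rules were chosen with earlier results of these data known. Alternatives were pseudocounts 0.1 and 0.5, no filter, a minimum mean of 2, median-of-ratios and quantile scaling, no trend, a replicate block, voom on the recovered reads (called 21.2% of genes) and each library left out. Every library counted as 1 replicate. A gene that this rule would name is not reported here.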

Additional observations from a re-analysis of the deposited data

How the results depend on the processing

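The 5 called genes kept their direction in all alternatives and stayed called under both pseudocounts, without a filter, with a minimum mean of 2 RPKM, with either scaling, without a trend and with voom; DLAT was lost with the replicate block (adjusted p = 0.060), 4 of the 5 without E8 replicate 1 (TALDO1 passed) and all 5 without E8 replicate 2, fits in which the lone E8 library is assumed to vary like the AKIT group. Scaling moved the median of all genes by less than 0.1. The replicate numbers did not pair the samples (correlation of deviations -0.001 and 0.025 for the 2 pairs); the replicate block, in which AKIT replicate 3 has no partner and adds nothing to the comparison, gave 492 genes higher and 824 lower, 3 pyruvate entry, 1 pentose phosphate, 2 tricarboxylic acid cycle and 2 regulator genes, and called SLC16A3 and PDK1 higher. Without a filter (12.5% of all genes called), other glycolysis genes gave 1 call and pyruvate entry genes 2. With voom (21.2%) the former gave 1. Leaving out each library in turn gave 142 to 2132 genes higher, 250 to 2619 lower, 0 to 7 of the 38 genes higher and 0 to 3 lower, and calls of 0 to 3 for other glycolysis genes, 1 to 6 for carriers, 0 to 8 for pyruvate entry, 0 to 5 for pentose phosphate, 0 to 14 for the tricarboxylic acid cycle, 0 to 6 for glycogen and hexosamine and 1 to 11 for regulators; differences of paralog shares ran from -2.59 to 0.46 percentage points for ALDOC, -4.72 to 6.59 for LDHA, 2.21 to 11.7 for PDK1, 5.11 to 13.6 for SLC16A3, -7.23 to -1.93 for HK2, -6.59 to -3.91 for ENO2, -9.28 to -6.72 for SLC2A1, -7.72 to -6.50 for PFKM and -4.16 to 2.38 for PFKFB4. Direction changed in 24 cases, none called over all libraries or in that same fit; among them were SLC16A3 (-0.17 and -0.18 without AKIT replicates 1 and 2), PDK1 (-0.10 without AKIT replicate 2) and LDHB (-0.02 without AKIT replicate 1 or 3), which other fits called higher. Fits without a library have fewer samples by construction.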

Other observations

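Some genes outside the 40 symbols that were also low in AKIT replicate 3 against the other AKIT libraries are given here. They were named after their values were seen and by no fixed rule, out of 739 genes in the lowest 5% for that library. They do not describe that set, and why they were low was not tested. NDUFA4L2 was at 16.1, 26.3 and 0.087 RPKM in AKIT replicates 1 to 3 and at 1.33 and 1.35 RPKM in E8, the lowest of all genes in AKIT replicate 3 against the other AKIT libraries. BNIP3, a mitophagy receptor, was at 61.7, 65.5 and 23.7 RPKM in AKIT and at 35.8 and 38.5 RPKM in E8. EGLN1, an oxygen-dependent prolyl hydroxylase, was at 6.77, 6.28 and 1.65 RPKM in AKIT and at 5.33 and 6.02 RPKM in E8. EGLN2 and EGLN3, of the same family, were outside that lowest 5%. Against the other AKIT libraries, AKIT replicate 3 differed by 0.007 for EGLN2 (rank 7173 from the lowest) and -0.32 for EGLN3 (rank 1328). ADM (adrenomedullin) was at 55.6, 41.1 and 19.1 RPKM in AKIT and at 204 and 196 RPKM in E8, lower in all AKIT libraries (-2.47, adjusted p = 0.00761).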
